A study of Homo sapiens with 12 samples.

Results

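The contrast described here asks whether decitabine changed RNA levels differently in venetoclax-resistant OCI-LY1R cells and in the parental OCI-LY1 cells they came from. It was computed as the response of resistant cells (decitabine minus vehicle) minus the response of parental cells, so a positive value means that the feature responded more upwards, or less downwards, in resistant cells. It used 11 of the 12 libraries of the study: 3 of resistant cells with decitabine, 3 of resistant cells with vehicle, 2 of parental cells with decitabine and 3 of parental cells with vehicle. OCI-LY1 is an established cell line from a diffuse large B-cell lymphoma, with the germinal-centre phenotype, and OCI-LY1R is its derivative selected with rising venetoclax up to 1 µM. Decitabine was given at 1 µM for 3 days and the vehicle was DMSO. OCI-LY1R stands for 1 selected line, and the labels do not call the replicates separate cultures. The p-values hence reflect variation from library to library, which may be technical. Letters a, b and c name the resistant libraries of a group, and parental libraries carry their labelled numbers.

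Decitabine is an analogue of deoxycytidine. Once phosphorylated by the cell and built into DNA it traps the DNA methyltransferases, and CpG methylation is lost as the cells divide. Genes held silent by promoter methylation can then be transcribed, and changes that follow from DNA damage or stress come with it. Venetoclax blocks BCL2, which holds the pro-apoptotic BH3-only proteins, such as BIM and BMF, in check. Death receptors such as FAS start apoptosis from the cell surface by another route, through FADD and caspase-8.

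Levels are TPM, the abundance of a transcript per length on a scale that sums to the same total in each library, from 1 deposited table per cell line. The tables were joined by feature name, so line and table cannot be told apart in any level set across them. Features above 0 numbered 12492 to 13027 in resistant decitabine libraries and 9620 to 9853 in resistant vehicle libraries, against 11148 and 11629 in parental decitabine libraries and 10148 to 10347 in parental vehicle libraries. Protein-coding features took 26.61% to 32.18% of TPM in the 11 libraries and antisense features 34.9% to 48.7%. Replicate 3 of the parental decitabine group, which was left out, had 89.4% and 0.2979%, and ACTB at 6353 TPM against 8.14 to 20.4 TPM in the 11. The strand setting is not given in the sources used here, and the strand composition of the 11 libraries is thus the inverse of that of the left-out library. A value listed under a name in the 11 may therefore hold reads of the gene on the opposite strand, which bears on nearly every level given here, antisense features and coding genes alike. Which of the compositions is right was not tested, so values are those listed under a name. The left-out library's value is given beside those of the called features described by level and of several genes not called. Replicate pairs correlated at a Pearson r of 0.8321 to 0.8663 across features. All 12 B-cell markers were above 0 in at least 1 of the 11 libraries, and their summed level was 212 to 284 TPM in resistant decitabine libraries, 127 to 212 TPM in resistant vehicle libraries, 96.0 to 119.7 TPM in parental decitabine libraries and 107.6 to 211.2 TPM in parental vehicle libraries. Of the defining markers, MS4A1 (CD20) was listed at 0 in 9 of the 11 libraries and CD79A was at 3.39 to 8.74 TPM, against 204 and 1491 TPM in the left-out library. Summed T-cell, NK-cell, myeloid and fibroblast markers reached at most 2.28 TPM, with CD3D, CD3E, CD2, TRAC and CD14 at 0 in all 11. The epithelial markers summed to 1.77 to 23.4 TPM in resistant decitabine libraries and to at most 2.98 TPM in the other groups, with KRT18 and CDH1 at 0, and their part in the results was not tested.

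Among 8505 features averaging 1 TPM or more, limma called 31 with a different response between the lines (0.364%, Benjamini-Hochberg adjusted p under 0.05). The response was higher in resistant cells for 16 (0.188%) and lower for 15 (0.176%). At an unadjusted p under 0.05 there were 857 (10.1%). Called features with a higher response in resistant cells were FAS, SNAP29, ZC3HC1, PRR33, BMF-AS1, KCTD11, PINK1, ACAT1 and 8 features with clone names. Those with a lower response were UQCR10, TANGO2, RSPH10B2, NPIPB11, PCDH9-AS1, RUSC1-AS1 and 9 features with clone names. In these bulk libraries a lower share of cells with an RNA and less of that RNA per cell cannot be told apart.

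The promoters of FAS, SNAP29 and UQCR10 are printed because decitabine acts on CpG methylation and these genes show the patterns on which the contrast turns: a response of opposite sign in the lines, and, among the fitted libraries, a level above 0 in resistant decitabine libraries alone or in parental decitabine libraries alone. Each is the stretch of 250 bases before the first start that RefSeq lists (GRCh38.p14), plus strand, with CpG dinucleotides in capitals. As GENCODE 29 bounds the genes, 216 bases of the FAS stretch and 24 of the SNAP29 stretch lie inside the gene, and 0 of the UQCR10 stretch. Of the 14 called features with a gene symbol 10 were found in that table.
FAS, chr10:88990548-88990797: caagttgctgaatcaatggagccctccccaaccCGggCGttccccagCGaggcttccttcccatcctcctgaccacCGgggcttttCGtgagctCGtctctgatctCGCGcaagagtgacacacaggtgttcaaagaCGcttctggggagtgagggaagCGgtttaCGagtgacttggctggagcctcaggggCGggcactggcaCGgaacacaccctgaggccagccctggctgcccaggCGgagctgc
SNAP29, chr22:20858757-20859006: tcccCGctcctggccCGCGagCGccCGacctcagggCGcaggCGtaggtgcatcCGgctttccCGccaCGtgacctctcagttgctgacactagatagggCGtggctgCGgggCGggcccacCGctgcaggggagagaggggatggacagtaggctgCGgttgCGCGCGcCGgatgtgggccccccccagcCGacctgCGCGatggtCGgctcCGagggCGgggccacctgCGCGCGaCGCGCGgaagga
UQCR10, chr22:29767119-29767368: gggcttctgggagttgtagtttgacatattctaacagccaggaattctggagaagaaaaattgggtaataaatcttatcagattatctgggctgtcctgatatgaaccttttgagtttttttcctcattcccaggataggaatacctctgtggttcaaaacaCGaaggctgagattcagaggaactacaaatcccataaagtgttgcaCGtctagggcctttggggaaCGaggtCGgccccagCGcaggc

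The FAS stretch holds 14 CpG, and 72.7% of the 4227 tested features with a promoter in the table hold as many or more. The SNAP29 stretch holds 31 CpG, a number reached by 18.3%, and the UQCR10 stretch 5, a number reached by 89.7%. The median over tested features was 21, with quartiles of 13 and 28. The other called genes ran from 39 CpG in the TANGO2 stretch to 1 in that of PCDH9-AS1. Methylation was not measured in these libraries, and the counts describe the sequence alone.

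Across the 8505 tested features the response of resistant cells and that of parental cells correlated with a Pearson r of 0.255 and a Spearman rho of 0.292. Over the 5083 features above 0 in every library these were 0.384 and 0.393. Both are descriptions, since features are not independent replicates. The median difference was -0.00278 on the log2 scale, with a median response of 0.18 in resistant cells and 0.20 in parental cells. In the same model 661 features (7.77%) were called for resistant cells, 485 rising (5.7%) and 176 falling (2.07%). In parental cells 195 (2.29%) were called, 153 rising (1.8%) and 42 falling (0.494%). The same direction was called in both lines for 112, which is 16.9% of the resistant and 57.4% of the parental calls. Of the 548 features called in resistant and not in parental cells 19 (3.47%, against 0.364% of all tested features) passed the test of the difference itself. At an unadjusted p under 0.05 there were 242 of the 548, against 10.1% of all tested features. The resistant response is part of the difference, so these shares are not independent of the calls. Most features called in resistant cells only were thus not called for the difference.

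**Figure D1:**
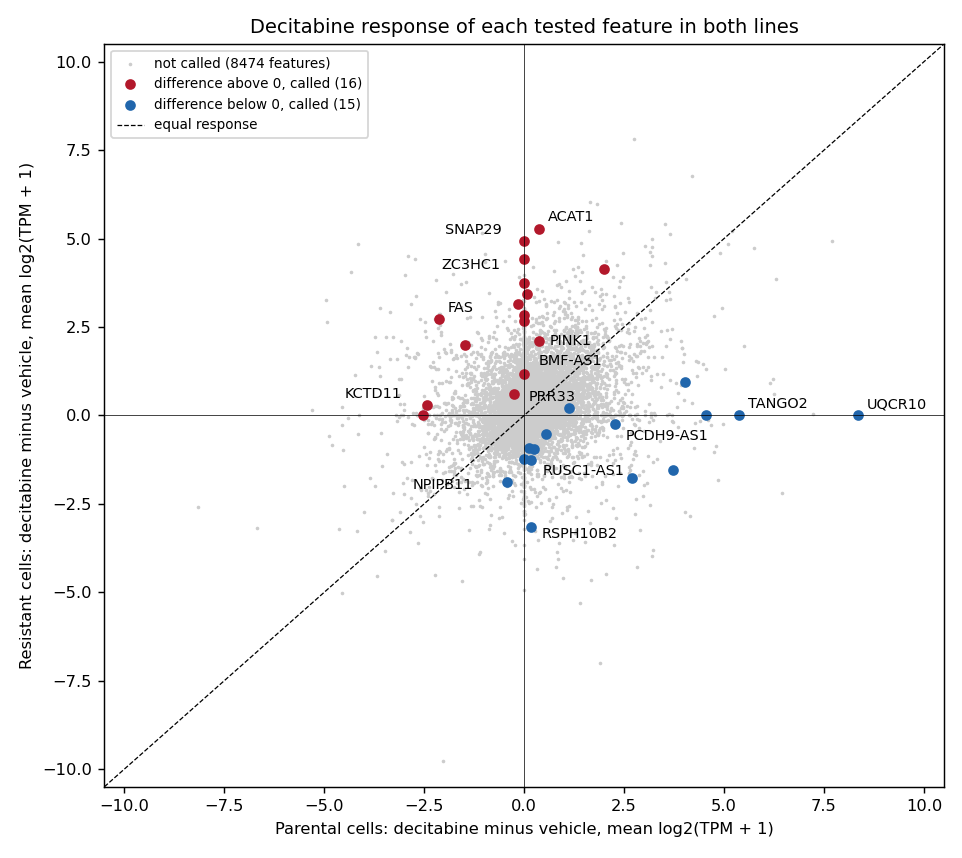
Response of each of 8505 tested features to decitabine, as the difference of group means of log2(TPM + 1), in resistant cells (vertical axis) and parental cells (horizontal axis). Red points are the 16 called features with a higher response in resistant cells, blue points the 15 with a lower one, and the dashed line marks equal responses. SNAP29 and ZC3HC1 lie on the vertical line of no parental response, UQCR10 and TANGO2 on the horizontal line of no resistant response, and FAS in a quadrant of opposite signs.

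Of the 31 called features 19 were called for a response in resistant cells and not in parental cells, of which 12 rose and 7 fell. Another 10 were called in parental cells and not in resistant cells, 8 rising and 2 falling. In 2 both responses were called, FAS with opposite signs and a feature opposite MTSS1L with the same sign. Values at 0 were more frequent among the called features than among those tested. In 15 of 31 (48.4%) every library of at least 1 group was listed at 0, against 13.9% of tested features, and in 9 only 1 of the 4 groups was above 0, against 151 of the 8505 tested. An exact 0 in these tables may be a failed estimate: UBB, a ubiquitin gene that every cell uses, was listed at 0 in 3 of the 11 libraries and ranged from 1929 to 2706 TPM elsewhere. No fold is therefore given against a group listed at 0.

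FAS is the death receptor of the extrinsic apoptosis pathway. It was the 1 feature called in opposite directions in the lines. FAS (chromosome 10, 88990582 to 89015785, GRCh38) was at 73.3, 95.03 and 63.1 TPM in resistant decitabine libraries and at 8.20, 9.54 and 15.2 TPM in resistant vehicle libraries, against 1.81 and 0.881 TPM in parental decitabine libraries and 8.63, 7.89 and 11.1 TPM in parental vehicle libraries. The vehicle groups overlapped, every resistant decitabine library was above all others, and both parental decitabine libraries were below all others. The log2 response was 2.73 in resistant cells (SE 0.28, adjusted p = 0.00111) and -2.14 in parental cells (SE 0.32, adjusted p = 0.013). The difference of 4.87 (SE 0.43, 95% interval 3.90 to 5.83) had a limma adjusted p of 0.0019. Its size depends on the pseudocount of 1 added to TPM, since the parental decitabine values are near 1 TPM. With a pseudocount of 10 the difference was 2.81, outside that interval, and with 0.1 it was 5.58. Under decitabine the lines thus stood 5.07 apart on the log2 scale, and under vehicle 0.20. The left-out parental decitabine replicate 3 had 2.98 TPM, also below every vehicle library, although levels in that library are not on the scale of the others. Of the exon length of FAS 8.9% lies opposite ACTA2, the smooth-muscle actin gene, which was not called (adjusted p = 0.75) and stood at 6.39 to 20.4 TPM in resistant decitabine libraries and at most 9.04 TPM in the other groups. Of the 13 genes listed for the death receptor pathway 4 were tested, and FAS was the 1 called. TNFRSF10B, a receptor for TRAIL, had a difference of -0.82 (SE 0.50, adjusted p = 0.603).

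SNAP29 and ZC3HC1 rose in resistant cells and were listed at 0 in every other fitted library. SNAP29 encodes a SNARE protein of membrane fusion that takes part in the fusion of autophagosomes with lysosomes. SNAP29 (chromosome 22, 20858983 to 20891218) was at 30.4, 35.1 and 23.4 TPM in resistant decitabine libraries and at 0 in the 3 resistant vehicle, 2 parental decitabine and 3 parental vehicle libraries (limma adjusted p of the difference = 0.00118). The antisense feature that lies wholly opposite SNAP29 showed no such pattern in the 11 libraries, with 72.5 to 114 TPM in each (adjusted p = 0.624). It was at 0 in the left-out library, where SNAP29 was at 34.3 TPM. Which strand its reads came from was not tested. ZC3HC1 encodes a protein of the nuclear pore basket. ZC3HC1 (chromosome 7, 130018286 to 130051451) was at 18.2, 22.6 and 21.2 TPM in resistant decitabine libraries and at 0 in the other 8 (limma adjusted p of the difference = 0.0013). In the left-out parental decitabine replicate 3 SNAP29 was at 34.3 TPM and ZC3HC1 at 60.5 TPM, so neither was at 0 in all libraries of parental cells given decitabine. Both genes passed the filter on low levels only through the group above 0. The groups at 0 had no spread, which lowers the spread behind these p-values. With a filter at a mean of 5 TPM the limma adjusted p was 0.0382 for SNAP29 and 0.0468 for ZC3HC1.

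UQCR10 and TANGO2 had the mirror pattern, listed above 0 in parental decitabine libraries alone. UQCR10 is a small subunit of respiratory complex III, the enzyme that passes electrons from ubiquinol to cytochrome c. UQCR10 (chromosome 22, 29767369 to 29770413) was at 0 in all 6 resistant libraries, at 342 and 304 TPM in parental decitabine libraries and at 0 in all 3 parental vehicle libraries, which gave the smallest adjusted p of the contrast (limma adjusted p = 1.31e-05). TANGO2, a gene whose loss causes an inherited disease with metabolic crises, lies on the same chromosome (22, 20017014 to 20065926). It was at 0 in all 6 resistant libraries, at 36.6 and 44.1 TPM in parental decitabine libraries and at 0 in all 3 parental vehicle libraries (limma adjusted p of the difference = 0.000579). Both were also above 0 in the left-out replicate 3, at 141.2 and 13.8 TPM. The antisense feature wholly opposite TANGO2 was at 103 TPM in resistant vehicle c and at 110 TPM in parental vehicle replicate 3. It was at 0 in the other 9 fitted libraries and in the left-out one. Of 64 genes listed for nuclear-encoded subunits of the respiratory chain 31 were tested, and UQCR10 was the 1 called.

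**Figure D2:**
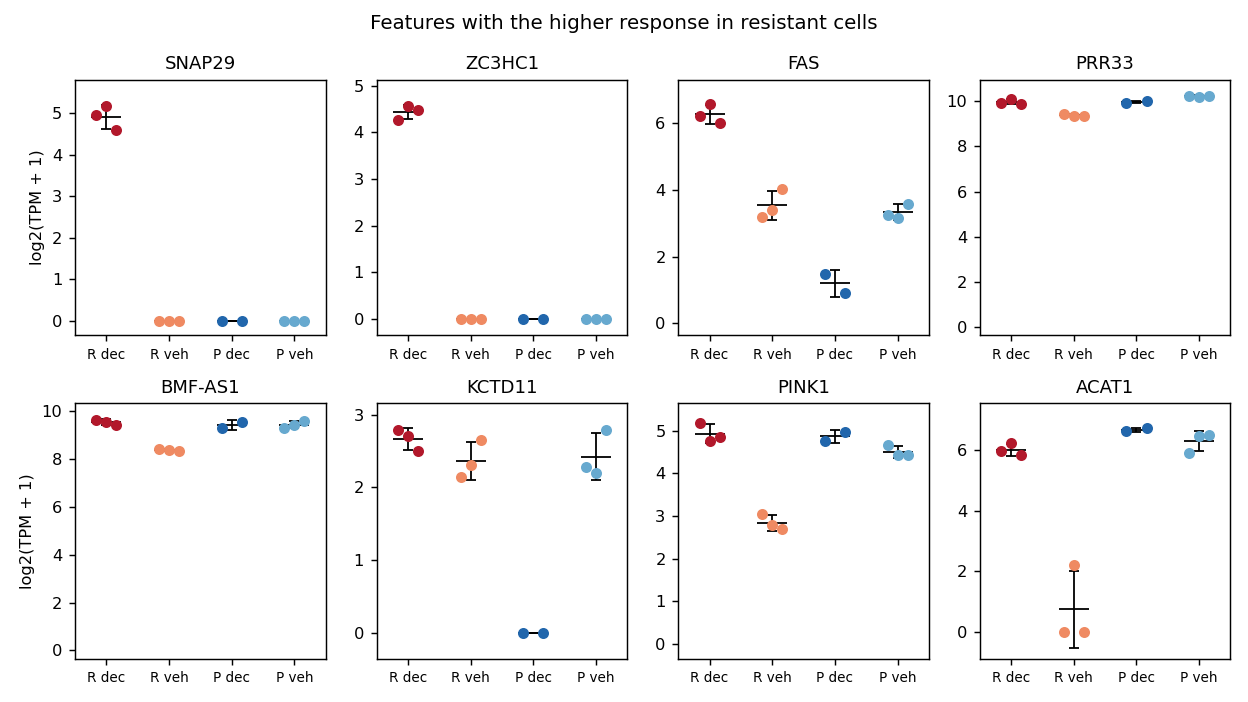
Level of the 8 called genes with a symbol and a higher response in resistant cells, as log2(TPM + 1), in resistant decitabine (R dec), resistant vehicle (R veh), parental decitabine (P dec) and parental vehicle (P veh) libraries. Points are libraries and bars the mean ± SD of 3 libraries (2 for P dec). SNAP29 and ZC3HC1 are above 0 in R dec alone, while BMF-AS1, PINK1 and ACAT1 are lowest in R veh.

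In a further set resistant cells were lower than parental cells under vehicle and nearer to them under decitabine. BMF-AS1, PINK1, PRR33 and ACAT1 had this form. BMF-AS1 (chromosome 15, 40088832 to 40089386) is an antisense transcript that lies wholly opposite BMF, the gene of a BH3-only activator of apoptosis. It was at 794, 740.3 and 679.7 TPM in resistant decitabine libraries and at 335, 330.5 and 316 TPM in resistant vehicle libraries, against 617 and 746 TPM in parental decitabine libraries and 619, 678 and 753 TPM in parental vehicle libraries. The 3 resistant vehicle libraries were below all others, and the other 3 groups overlapped. Its log2 response was 1.17 in resistant cells (SE 0.11, adjusted p = 0.000628) and -0.01 in parental cells (SE 0.12, adjusted p = 1), and the difference was 1.17 (SE 0.16, limma adjusted p = 0.0346). The gap between the lines was 0.12 under decitabine and -1.05 under vehicle. BMF itself was listed at 0 in all 6 resistant libraries. In parental cells it was at 19.3 and 23.6 TPM with decitabine and at 17.998, 0 and 22.6 TPM with vehicle, and its difference was not called (adjusted p = 0.781). The left-out parental decitabine replicate 3 had the opposite order, with BMF-AS1 at 0 and BMF at 74.4 TPM.

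PINK1 encodes the mitochondrial kinase that marks damaged mitochondria for removal by autophagy. PINK1 (chromosome 1, 20633455 to 20651511) was at 35.2, 26.2 and 27.9 TPM in resistant decitabine libraries and at 7.33, 5.87 and 5.46 TPM in resistant vehicle libraries, against 26.02 and 30.7 TPM in parental decitabine libraries and 24.3, 20.5 and 20.6 TPM in parental vehicle libraries. As for BMF-AS1, the resistant vehicle libraries stood below all others. The difference was 1.73 (SE 0.28, limma adjusted p = 0.0495), with a response of 2.09 in resistant cells (SE 0.18, adjusted p = 0.000464) and of 0.36 in parental cells (SE 0.21, adjusted p = 0.413). Its gap between the lines was 0.06 under decitabine and -1.66 under vehicle. Of the exon length of PINK1 39.4% lies opposite PINK1-AS, which also rose in resistant cells (0.88, adjusted p = 0.024) and whose difference was not called (0.43, adjusted p = 0.634). In the left-out library PINK1 was at 12.3 TPM and PINK1-AS at 1.32 TPM.

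ACAT1 is a mitochondrial thiolase of ketone body and isoleucine metabolism. ACAT1 (chromosome 11, 108121516 to 108147776) was at 61.6, 74.2 and 56.9 TPM in resistant decitabine libraries and at 0, 3.61 and 0 TPM in resistant vehicle libraries, against 99.0 and 105 TPM in parental decitabine libraries and 59.5, 88.0 and 91.1 TPM in parental vehicle libraries. The resistant vehicle libraries were far below the others, with 2 of 3 listed at 0. The left-out library had 63.8 TPM. The difference of responses was 4.90 on the log2 scale (SE 0.79, limma adjusted p = 0.0495). With the resistant vehicle values at or near 0 its size depends on the pseudocount of 1. It was 7.20 with 0.1 (limma adjusted p = 0.170) and 2.39 with 10 (limma adjusted p = 0.0122). An antisense feature partly opposite ACAT1 was at 56.0, 11.7 and 6.53 TPM in parental vehicle libraries and at 0 in the other 8 fitted libraries. Its difference was not called (limma adjusted p = 0.149). PRR33 (chromosome 11, 1888577 to 1891895), a coding gene that overlaps the lymphocyte actin-binding gene LSP1 on the opposite strand over 3.7% of its exon length, was at 977, 1091 and 947 TPM in resistant decitabine libraries and at 690.1, 644 and 653 TPM in resistant vehicle libraries, against 975 and 1019 TPM in parental decitabine libraries and 1206, 1154 and 1211 TPM in parental vehicle libraries. The difference was 0.85 (SE 0.12, limma adjusted p = 0.0337), the smallest among the 31 called features. The response was 0.60 in resistant cells (SE 0.08, adjusted p = 0.0029) and -0.25 in parental cells (SE 0.09, adjusted p = 0.174). LSP1 had a difference of 1.71 that was not called (SE 0.59, adjusted p = 0.351). PRR33 was at 0.923 TPM and LSP1 at 951 TPM in the left-out library.

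KCTD11, an adaptor of a ubiquitin ligase that restrains Hedgehog signalling, differed through parental cells. KCTD11 (chromosome 17, 7351889 to 7354944) was at 5.93, 5.50 and 4.65 TPM in resistant decitabine libraries and at 3.41, 3.95 and 5.26 TPM in resistant vehicle libraries. In parental libraries it was listed at 0 in both with decitabine and at 3.85, 3.60 and 5.93 TPM with vehicle (limma adjusted p of the difference = 0.037). An antisense feature lies wholly opposite KCTD11 and was at 39.6 to 56.5 TPM in all 11 libraries (adjusted p = 0.714). In the left-out parental decitabine library KCTD11 was at 3.53 TPM and the antisense feature at 0. KCTD11 was thus not at 0 in every library of that treatment, and the strand of the antisense reads was not tested.

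**Figure D3:**
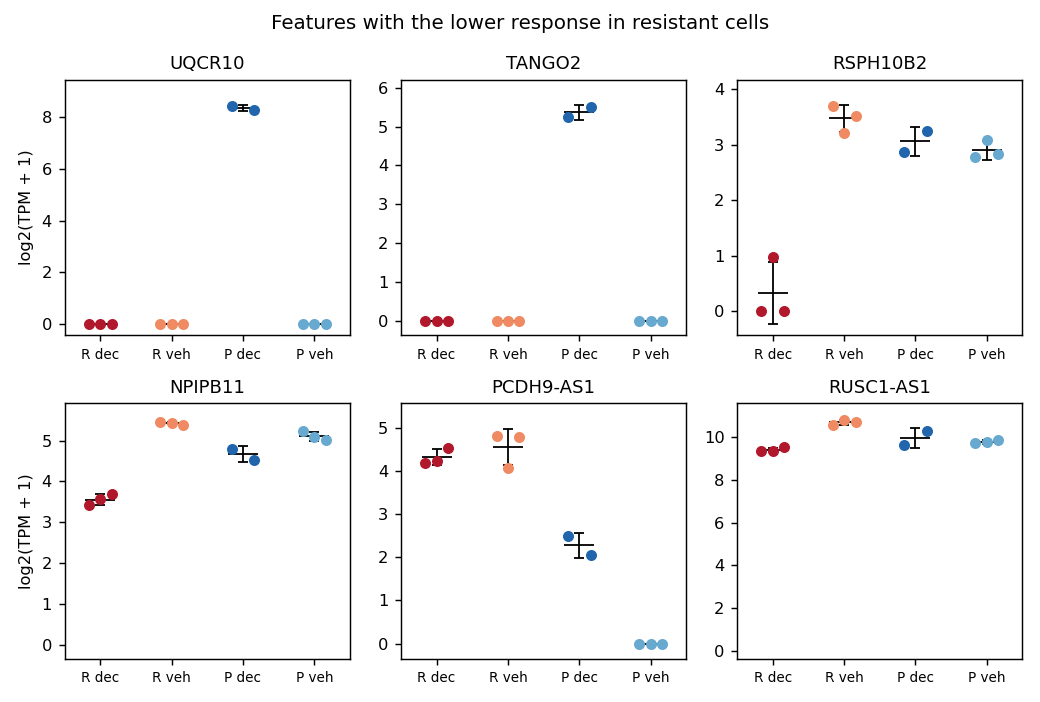
Level of the 6 called genes with a symbol and a lower response in resistant cells, as log2(TPM + 1), in the same 4 groups. Points are libraries and bars the mean ± SD of 3 libraries (2 for P dec). UQCR10 and TANGO2 are above 0 in P dec alone, and NPIPB11 and RSPH10B2 are lowest in R dec.

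Of the other genes with a lower response in resistant cells, 3 fell with decitabine in resistant cells with no called response in parental cells. NPIPB11 belongs to a multicopy family of chromosome 16 and its assignment is uncertain. NPIPB11 (chromosome 16, 29381354 to 29404029) was at 9.71, 10.8 and 11.8 TPM in resistant decitabine libraries and at 42.5, 42.4 and 40.9 TPM in resistant vehicle libraries, against 27.0 and 22.0 TPM in parental decitabine libraries and 36.6, 32.8 and 31.3 TPM in parental vehicle libraries. The 4 groups did not overlap. Its response was -1.87 in resistant cells (SE 0.15, adjusted p = 0.000323) and -0.44 in parental cells (SE 0.16, adjusted p = 0.213), and the difference was -1.43 (SE 0.22, limma adjusted p = 0.0447). RSPH10B2, a gene of the radial spoke of cilia with the near-identical copy RSPH10B and so also uncertain, lies on chromosome 7 (6754109 to 6799365). It was at 0, 0.968 and 0 TPM in resistant decitabine libraries and at 11.99, 8.27 and 10.4 TPM in resistant vehicle libraries, against 6.32 and 8.48 TPM in parental decitabine libraries and 5.83, 7.495 and 6.13 TPM in parental vehicle libraries (difference -3.31, SE 0.48, limma adjusted p = 0.037). The left-out library had NPIPB11 at 28.6 TPM and RSPH10B2 at 0.

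RUSC1-AS1 is a noncoding transcript of which 19.7% lies opposite FDPS, the farnesyl diphosphate synthase gene of the cholesterol pathway. RUSC1-AS1 (chromosome 1, 155316863 to 155324176) was at 640.4, 656 and 725 TPM in resistant decitabine libraries and at 1477, 1787 and 1626 TPM in resistant vehicle libraries, against 781 and 1232 TPM in parental decitabine libraries and 824, 855 and 922 TPM in parental vehicle libraries. The difference was -1.45 (SE 0.24, limma adjusted p = 0.0495), and FDPS had one of 0.28 that was not called (SE 0.39, adjusted p = 0.838). RUSC1-AS1 was at 1.37 TPM and FDPS at 216 TPM in the left-out library. The remaining gene, PCDH9-AS1 (chromosome 13, 66303871 to 66323561), lies partly opposite the protocadherin gene PCDH9 and differed through parental cells. It was at 17.2, 17.8 and 22.0 TPM in resistant decitabine libraries and at 27.1, 15.8 and 26.6 TPM in resistant vehicle libraries, while in parental libraries it was at 4.58 and 3.18 TPM with decitabine and listed at 0 in all 3 with vehicle (limma adjusted p of the difference = 0.046). PCDH9-AS1 was at 0 in the left-out library.

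The contrast can be read both ways, as unequal responses or as a gap between the lines that decitabine changes, with the reservation that the lines stand in separate tables. For 15 of the 31 called features the gap was smaller under decitabine than under vehicle, and for 16 it was larger. Among the 14 with a gene symbol it was smaller for 6 and larger for 8. In 18 of the 31 the lines differed by less than 1 on the log2 scale under vehicle. For the 9 called features above 0 in 1 group alone these counts say nothing. Both lines were listed at 0 in the other treatment, so the gap there was 0 and the larger gap was fixed in advance. Those above 0 only under decitabine, such as SNAP29 and UQCR10, are for the same reason among the 18.

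**Figure D4:**
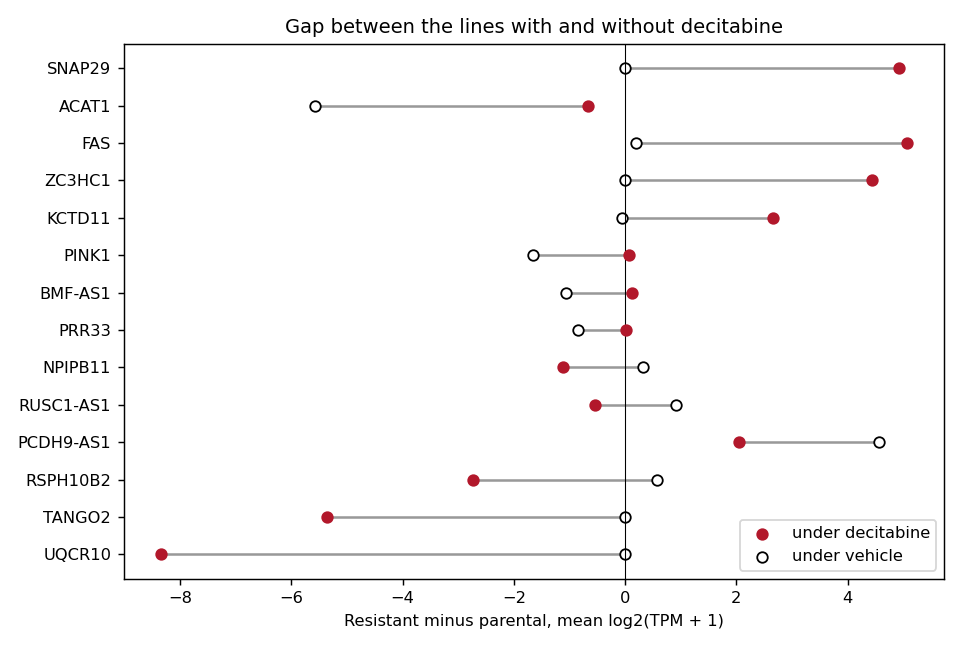
Gap between the lines for the 14 called genes with a symbol, as resistant minus parental mean log2(TPM + 1), under decitabine (filled points) and under vehicle (open points). The horizontal axis is on the log2 scale, each line joins the 2 gaps of a gene, and its length is the difference of responses. A gap that involves a group listed at 0 depends on the pseudocount of 1. PINK1, BMF-AS1 and PRR33 stand near 0 under decitabine, and FAS, SNAP29, ZC3HC1, TANGO2 and UQCR10 near 0 under vehicle.

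Features with clone names made up 17 of the 31 calls. By annotation 13 of the 31 called features were antisense (41.9%, against 20.2% of tested features), 11 were protein-coding (35.5%, against 54.5%), 3 were lincRNA (9.68%, against 4.36%) and 3 had no match in the annotation. Of the 28 annotated ones 21 (75%) had exons opposite another gene, close to the 70.5% of tested features. They are given here by position, and those opposite PTPRB and ENG lie outside the naming rule and were chosen after their values were seen. The feature with the same sign in both lines, unclassified in the annotation (chromosome 16, 70661667 to 70665836) and opposite MTSS1L over 76.8% of its length, was at 39.2, 35.3 and 32.7 TPM in resistant decitabine libraries and at 1.07, 0.906 and 1.32 TPM in resistant vehicle libraries, against 12.2 and 17.2 TPM in parental decitabine libraries and 3.30, 2.24 and 3.27 TPM in parental vehicle libraries. It rose in both lines, by 4.13 (SE 0.23, adjusted p = 3.24e-05) in resistant cells and 1.99 (SE 0.25, adjusted p = 0.00627) in parental cells, and the difference was 2.14 (SE 0.34, limma adjusted p = 0.0468). In the left-out library it was listed at 0.

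An antisense feature wholly opposite GPR146, an orphan G protein-coupled receptor gene, lies on chromosome 7 (1055360 to 1059261). It was at 83.2, 103 and 79.1 TPM in resistant decitabine libraries and at 41.0, 16.6 and 13.9 TPM in resistant vehicle libraries, against 68.1 and 39.3 TPM in parental decitabine libraries and 141, 129.7 and 171 TPM in parental vehicle libraries. It thus was higher with decitabine in every resistant library and lower in every parental one (difference 3.48, SE 0.56, limma adjusted p = 0.0495), and its fall in parental cells did not pass the test (-1.48, adjusted p = 0.111). GPR146 itself had a difference of 2.12 (SE 0.50, adjusted p = 0.153). In the left-out library the antisense feature was at 0.0536 TPM and GPR146 at 5.74 TPM. A lincRNA wholly opposite PNP, the purine nucleoside phosphorylase gene (chromosome 14, 20474789 to 20477089), was at 227, 259.6 and 227 TPM in resistant decitabine libraries and at 487, 589 and 621 TPM in resistant vehicle libraries, against 341 and 332 TPM in parental decitabine libraries and 316, 341 and 353 TPM in parental vehicle libraries. It fell in resistant cells alone (difference -1.24, SE 0.17, limma adjusted p = 0.0337), to below the level of parental cells. In the left-out library it was at 0 and PNP at 64.5 TPM. An antisense feature partly opposite LRMP (chromosome 12, 25096868 to 25100980) fell to 691, 738 and 721 TPM in resistant decitabine libraries, against 1401, 1336 and 1352 TPM in resistant vehicle libraries. In parental cells it was at 679 and 575 TPM with decitabine and at 520.5, 604 and 619 TPM with vehicle (difference -1.04, SE 0.14, limma adjusted p = 0.0337). The LRMP feature too was at 0 in the left-out library.

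The most abundant called feature had no match in the annotation. It was at 4054, 4542 and 4582 TPM in resistant decitabine libraries and at 3693, 3857 and 3946 TPM in resistant vehicle libraries, against 2925 and 2898 TPM in parental decitabine libraries and 1305, 1409 and 1312 TPM in parental vehicle libraries. It rose in parental cells by 1.12 (SE 0.08, adjusted p = 0.000315), while the 0.20 of resistant cells did not pass the test (SE 0.07, adjusted p = 0.136), and the difference was -0.92 (SE 0.11, limma adjusted p = 0.0154). In the left-out library it was at 0.0236 TPM. Antisense features listed above 0 in a single group included one partly opposite PTPRB, a receptor tyrosine phosphatase gene (chromosome 12, 70570969 to 70571440), at 19.4 and 26.03 TPM in parental decitabine libraries alone (limma adjusted p = 0.00135). One partly opposite the endoglin gene ENG (chromosome 9, 127816066 to 127822520) was at 7.69, 19.1 and 12.7 TPM in resistant decitabine libraries alone (limma adjusted p = 0.0337). For both features the groups at 0 had no spread, as for SNAP29, which limits these p-values. The left-out library had the PTPRB feature at 4.41 TPM and the ENG feature at 0.724 TPM. The other called clone-named features had adjusted p-values of 0.0337 to 0.0495.

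Of 570 genes in 22 lists 237 were tested, and FAS and UQCR10 were the 2 called (0.844%, against 0.364% of all tested features). In the other 20 lists 0 were called by limma (23 of 204 tested, or 11.3%, at an unadjusted p under 0.05, summed over lists, against 10.1% of all tested features). Many of their members were under the mean of 1 TPM and not tested, so these lists bear on few of their genes. BCL2, the target of venetoclax, was at 75.8, 78.6 and 72.1 TPM in resistant decitabine libraries and at 37.6, 39.4 and 34.5 TPM in resistant vehicle libraries, against 74.96 and 88.6 TPM in parental decitabine libraries and 53.8, 55.9 and 52.8 TPM in parental vehicle libraries. Values were higher with decitabine in both lines, and the rise was called in resistant cells (1.01, SE 0.12, adjusted p = 0.0018) and not in parental cells (0.58, SE 0.13, adjusted p = 0.0625). The difference of 0.42 (SE 0.18, 95% interval 0.03 to 0.82) did not pass the test (adjusted p = 0.463). BCL2L1, the gene of BCL-XL, had a difference of -2.31 (SE 1.13, adjusted p = 0.535), with parental vehicle libraries at 3.09, 2.07 and 32.5 TPM. BCL2L11, the gene of BIM, had one of 0.41 (SE 0.67, adjusted p = 0.878). MCL1, BCL2A1 and BBC3 were below the mean of 1 TPM and were not tested.

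Of 4 tested genes of the DNA methylation machinery 0 were called, 1 at an unadjusted p under 0.05. DNMT1, the maintenance methyltransferase that decitabine traps, had a difference of -1.46 (SE 0.73, adjusted p = 0.538) at levels of at most 2.40 TPM. Of 11 tested genes that take up decitabine, activate it or handle nucleotides 0 were called, 1 at an unadjusted p under 0.05, with a median difference of 0.42. SAMHD1, which breaks down deoxynucleotide triphosphates and that of decitabine, was at 15.0, 15.8 and 16.04 TPM in resistant decitabine libraries and at 0 in resistant vehicle libraries, against 7.77 and 0 TPM in parental decitabine libraries and 0, 0 and 0.273 TPM in parental vehicle libraries (adjusted p of the difference = 0.417). Its level in parental decitabine cells rested on replicate 1. DNMT3A, DNMT3B, TET2 and CDA were below the mean of 1 TPM in the fitted libraries. Parental decitabine replicate 3, left out of the fit, had DNMT1 at 220.6 TPM and SAMHD1 at 32.2 TPM. It had DNMT3A at 2.50 TPM, DNMT3B at 5.67 TPM, TET2 at 4.61 TPM and CDA at 0.

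The histone gene H2BC12 had a similar form, at 227, 253 and 195 TPM in resistant decitabine libraries and at 43.6 and 0 TPM in parental decitabine libraries, and at 0 in all vehicle libraries (limma adjusted p of the difference = 0.308). All 5 tested replication-dependent histone genes had a positive difference, with a median of 1.14, and 0 passed the test (2 at an unadjusted p under 0.05). Over all tested features 49.9% had a positive difference and 10.1% an unadjusted p under 0.05. SYCP3, a protein of the meiotic chromosome axis and a germline gene, was at 91.5, 166 and 68.3 TPM in resistant decitabine libraries and at 16.2, 7.94 and 13.7 TPM in resistant vehicle libraries, against 16.4 and 34.3 TPM in parental decitabine libraries and 8.32, 12.4 and 15.1 TPM in parental vehicle libraries. It rose in resistant cells (2.96, SE 0.42, adjusted p = 0.00454), and the difference of 1.99 (SE 0.63) did not pass the test (adjusted p = 0.307). H2BC12 was at 89.9 TPM and SYCP3 at 26.5 TPM in the left-out library. Of 15 tested mitochondrially encoded genes 5 rose in resistant cells (5.7% of all tested) and 6 in parental cells (1.8% of all tested), and 0 differed between the lines (1 at an unadjusted p under 0.05, median difference -0.23). MT-ATP6, a subunit of ATP synthase, had the value of -1.64 (SE 0.60, adjusted p = 0.401). MT-ATP6 was at 32953 TPM in the left-out library. Of 16 glycolysis and hypoxia genes 3 fell in each line, against 2.07% of all tested features in resistant and 0.494% in parental cells, and 0 differed (2 at an unadjusted p under 0.05, median difference 0.02).

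For the B-cell identity list 17 of 36 genes were tested and 0 called (2 at an unadjusted p under 0.05), and for cytosolic ribosomal proteins 40 of 55 (0 called, 2 at an unadjusted p under 0.05, median difference -0.03). Interferon and nucleic acid sensing had 7 tested of 40 found, with a median of -1.25 and 0 called (2 at an unadjusted p under 0.05). KLRK1, the gene of the NKG2D receptor, is an example of like values in both lines. It was at 27.6, 37.4 and 44.2 TPM in resistant decitabine libraries and at 33.7 and 38.3 TPM in parental decitabine libraries, and at 0 in all 6 vehicle libraries. KLRK1 was at 28.6 TPM in the left-out library. With both vehicle groups at 0, its difference of responses is the gap between the lines under decitabine, -0.01 on the log2 scale (SE 0.35, 95% interval -0.80 to 0.79, limma adjusted p = 0.996).

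Calls were sensitive to single libraries. Leaving out each of the 11 libraries in turn gave 12 to 47 calls in place of 31: 17, 13 and 12 without parental vehicle replicate 1, 2 and 3, 32 and 44 without parental decitabine replicate 1 and 2, 47 without resistant vehicle a, 19 without b and 14 without c, and 32, 33 and 14 without resistant decitabine a, b and c. UQCR10, TANGO2, SNAP29, ZC3HC1, FAS, the feature opposite PTPRB and the abundant feature with no annotation match kept their calls in all 11 fits. For 5 of these 7 that says little of their stability: UQCR10, TANGO2, SNAP29, ZC3HC1 and the PTPRB feature were above 0 in 1 group alone, had no spread in the others and passed the filter on low levels only through that group. FAS and the abundant feature had no library at 0. FAS had a limma adjusted p of 0.00249 to 0.00737 in them. The other 24 kept theirs in 0 to 5 fits, with a median of 2.0, and where lost the adjusted p was 0.0503 to 0.134. BMF-AS1 kept its call without parental vehicle replicate 1, parental decitabine replicate 2 or resistant vehicle a, and lost it without any of the others (0.0503 to 0.0735). PRR33 kept its call without parental decitabine replicate 2, resistant vehicle a or any resistant decitabine library (lost at 0.0503 to 0.0715). The PNP feature kept its call without resistant vehicle a or resistant decitabine a or b (lost at 0.0503 to 0.0711), and the LRMP feature without parental decitabine replicate 2, resistant vehicle a or resistant decitabine b (lost at 0.0503 to 0.0691).

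The remaining genes kept their calls in 1 or 2 of these fits. PINK1 (lost at 0.0624 to 0.117), KCTD11 (0.056 to 0.077) and the GPR146 feature (0.0678 to 0.134) kept theirs without resistant vehicle a alone. ACAT1 (0.0614 to 0.126) and PCDH9-AS1 (0.0589 to 0.111) kept theirs without resistant vehicle b alone, where ACAT1 had an adjusted p of 0.000304. NPIPB11 kept its call without parental decitabine replicate 2 (lost at 0.056 to 0.107), RSPH10B2 without resistant decitabine b (0.0503 to 0.0958) and RUSC1-AS1 without parental decitabine replicate 1 or 2 (0.0548 to 0.122). The ENG feature kept its call without parental decitabine replicate 2, resistant vehicle a or resistant decitabine a or b (lost at 0.0503 to 0.0715). The MTSS1L feature kept its call in none (0.0508 to 0.111). Among the genes not called, BCL2L1 passed the test without parental vehicle replicate 3 (adjusted p = 0.00737), SAMHD1 without parental decitabine replicate 1 (0.00428) and H2BC12 without parental decitabine replicate 1 (0.000101) or 2 (0.036).

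**Figure D5:**
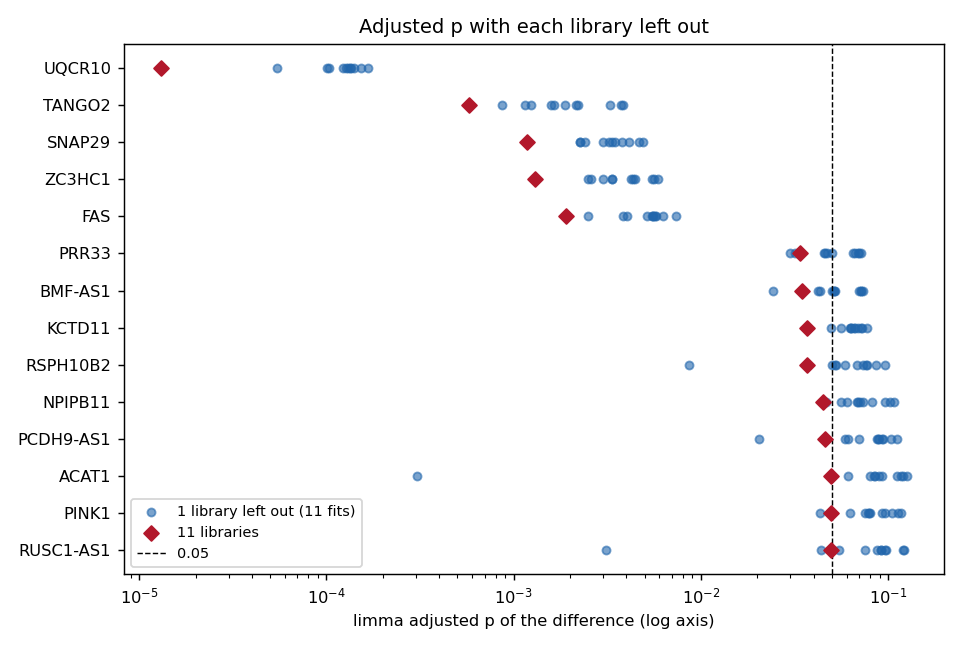
Limma adjusted p of the difference for the 14 called genes with a symbol, on a log axis, with all 11 libraries (red diamonds) and with 1 library left out (blue points, 11 fits). The dashed line is 0.05. All points of FAS, and of UQCR10, TANGO2, SNAP29 and ZC3HC1, which are above 0 in 1 group alone, lie left of it, and the other 9 genes have points on both sides.

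With the left-out parental decitabine replicate 3 included, 1 feature was called among 12706 tested, UQCR10 (341 at an unadjusted p under 0.05). FAS then had a difference of 4.60 and an adjusted p of 0.167, and the adjusted p was 0.184 for TANGO2 and 0.709 for SNAP29.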

How the data were processed

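RNA was measured in 12 libraries, 11 of them fitted here. Per the labels' protocols, stranded libraries were made from polyadenylated RNA for DNBSEQ sequencing. The submitters' processing notes name HISAT2, StringTie, DESeq2 and build hg38. What is not given in the sources used here includes tool versions, annotation release and strand setting. The deposited values carry no unit and were taken to be TPM, which the authors scaled within each library. TPM keep no depth, so depth is unknown and no counting intervals are given.

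Both tables were joined by feature name, over 59490 names found once (another 1166 features repeat a name and were dropped). GENCODE 29 (GRCh38) gave positions for 54865 of them. Parental columns were matched to samples by title and resistant columns to groups.

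A model of 4 group means was fitted in limma 3.58.1 with an intensity trend (R 4.3.3). Values were log2(TPM + 1), features had to average 1 TPM or more in the 11 libraries, and 7 residual degrees of freedom remained. P-values were adjusted over all 8505 features (Benjamini-Hochberg, under 0.05). The scale understates changes of low features. The script was tested on simulated data. Named were the called genes with a symbol, up to 6 called features per direction with no library at 0, called list members with up to 3 others of a described list by unadjusted p, 19 core apoptosis and methylation genes, and examples of each pattern. Not all of these are named, and clone names are not printed. Members and lists were chosen with earlier results of these data known. Alternatives were scalings, filters, pseudocounts, thresholds, variance models, a replicate block (in parental cells, and in both lines, this one added after seeing the data), repeated names summed, and libraries left out or included.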

Additional observations from a re-analysis of the deposited data

Results flagged for a closer look

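The 31 called features are listed here because the test of the difference itself passed its threshold. For the 9 above 0 in 1 group alone the groups at 0 had no spread, which lowers the spread behind their adjusted p. The limma adjusted p of the difference was 1.31e-05 for UQCR10, 0.000579 for TANGO2, 0.00118 for SNAP29, 0.0013 for ZC3HC1, 0.00135 for the feature opposite PTPRB, 0.0019 for FAS and 0.0154 for the abundant feature with no annotation match. For PRR33, for the features opposite PNP, LRMP, SUPT6H and ENG and for an antisense feature of chromosome 1 (3623190 to 3624743) the limma adjusted p was 0.0337. For BMF-AS1, a lincRNA of chromosome 21 (8380665 to 8410645) and a feature with no annotation match it was 0.0346. For KCTD11, RSPH10B2 and an antisense feature of chromosome 9 (37509150 to 37510299) it was 0.037, for a lincRNA of chromosome 2 (74130583 to 74135395) and an antisense feature of chromosome 11 (3226061 to 3232838) 0.044, and for NPIPB11 and the features opposite MTO1 and IMP3 0.0447. For PCDH9-AS1 it was 0.046, for the MTSS1L feature 0.0468, and for PINK1, ACAT1, RUSC1-AS1, the GPR146 feature and a last feature with no annotation match 0.0495.

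UQCR10 and TANGO2 were above 0 also in the library outside the comparison, parental decitabine replicate 3, at 141.2 and 13.8 TPM, with 0 in all 3 parental vehicle libraries. That library has another strand composition, and its part in these values was not tested.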

How the results depend on the processing

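The 31 called features kept the sign of their difference in all 747 values of the alternatives without parental decitabine replicate 3, and 372 of these values lost the call. The count of called features was 7 with no filter (3 higher, 4 lower), 15 for features above 0 in every library (7 and 8), 6 at an adjusted p under 0.01 (3 and 3), and 1 with parental decitabine replicate 3 included (0 and 1). With no filter the 7 were those called without any 1 library, of which 5 are above 0 in 1 group alone. Robust estimation called 21 (9 and 12) and a fit with no intensity trend 25 (17 and 8), of which 18 were among the 31. With a replicate block in parental cells 15 were called (6 and 9), of which 6 were among the 31 and among those 7. The other one, the abundant feature with no annotation match, had an adjusted p of 0.0962 there and of 0.209 with no intensity trend. With replicate 3 included the adjusted p was 0.709 for it, ZC3HC1 and the PTPRB feature. A replicate block in both lines, by the numbers in the column names and added after seeing the data, called 1 feature (0 and 1) and 0 of the 31, whose adjusted p was 0.0511 for UQCR10, 0.166 for FAS and at most 0.417. That feature, PRDX2, outside the naming rule, was listed at 0 in 5 of the 11 libraries and had an adjusted p of 0.577 without the block. Deviations of same-numbered decitabine and vehicle libraries correlated at -0.0115 in parental cells and at -0.00752, 0.0287 and 0.0359 in resistant cells. Resistant decitabine a correlated best with vehicle b (0.0348), while decitabine b and c each correlated best with the vehicle library of the same number. Values so near 0 cannot show whether same-numbered samples were paired, and the labels give only a number. Quantile scaling called 25 (13 and 12) and median-ratio scaling 29 (17 and 12), with medians over all features of -0.02 and 0.06. A pseudocount of 0.1 called 30 (17 and 13), of which 22 were among the 31. One of 10 called 40 (20 and 20), of which 23 were among the 31.

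Calls for the response were, in resistant cells, 428 with no filter, 193 at an adjusted p under 0.01, 412 with the parental block, 81 with that in both lines and 2 with replicate 3 included. In parental cells they were 56 at an adjusted p under 0.01, 62 with the parental block, 11 with that in both lines and 3 with replicate 3 included. Without 1 library each the difference was called for 12 to 47 features (5 to 27 higher, 7 to 20 lower), the resistant response for 404 to 583 and the parental one for 84 to 238.

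With parental decitabine replicate 3 included the sign turned for 6 called features: RUSC1-AS1 (1.45), the features opposite LRMP (2.06), IMP3 (1.22) and PNP (1.56), the lincRNA of chromosome 2 (0.97) and the abundant feature with no annotation match (2.90). It also turned for BCL2L11 (-0.43) and KLRK1 (0.10), which ran from -0.16 to 0.17 with 1 library left out (0.08 without parental decitabine replicate 2 and 0.17 without resistant decitabine a). BCL2L1 passed the test with the parental block (-3.39, adjusted p = 0.0202). The cause was not tested in any of these. The unknown depth limits what a 0 means.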
